A study of Homo sapiens with 20 samples.

Results

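IDO1, NPTX1, SEZ6, BTBD17 and CTCFL are 5 of the 54435 features counted in RNA-seq libraries of the H1 line, an established human embryonic stem cell line, and all 5 were among the 16792 features that passed the filter on low counts. They were chosen by their read counts in unedited cells (WT), where they were expressed at day 0 and almost gone by day 4. That difference between the days in WT is therefore given as a description with no test, and so is each difference of a clone from WT, because it rests on the same WT libraries. Poly(A) RNA came from WT cells and from a pair of lines labelled as knockouts of DIGIT, KO1 and KO2, called clones here and each a single line. DIGIT is a long noncoding RNA gene beside the homeobox gene GSC. Day 0 cells were kept in mTeSR1, a feeder-free medium for undifferentiated cells. Day 4 cells had been differentiated with 50 ng/ml Activin A in RPMI containing B27. Activin A is a TGF-beta family ligand that directs such cells towards endoderm. Line and day make 6 groups of 2 libraries. Each clone carries its own history of editing and growth, and with 1 line for each clone a difference between KO1 and KO2 cannot be told apart from a difference between any 2 lines.

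The 5 genes do not form a pathway. IDO1 encodes an indoleamine 2,3-dioxygenase, which opens the ring of tryptophan at the entry to the kynurenine pathway and is best known as an enzyme that interferon gamma induces. NPTX1 encodes neuronal pentraxin 1, a secreted protein that clusters AMPA-type glutamate receptors at synapses, and SEZ6 encodes a neuronal membrane protein with CUB and sushi domains. BTBD17 encodes a protein with a BTB domain. CTCFL (also BORIS) is the paralog of the chromatin insulator protein CTCF, is largely restricted to the male germ line, and appears in some tumours. To set the promoter of CTCFL beside that of its ubiquitously expressed paralog, the 250 bases upstream of an annotated start of each are shown. CTCFL has 3 such starts in the table and CTCF 1, and the most upstream one was taken. The sequences are from RefSeq on GRCh38.p14 and are written 5′ to 3′ on the gene's own strand. Capitals mark CCGCCC, the reverse-strand match of the GC box GGGCGG. CTCFL lies at chr20:57525653-57525902 on the minus strand and CTCF at chr16:67562276-67562525 on the plus strand.
CTCFL: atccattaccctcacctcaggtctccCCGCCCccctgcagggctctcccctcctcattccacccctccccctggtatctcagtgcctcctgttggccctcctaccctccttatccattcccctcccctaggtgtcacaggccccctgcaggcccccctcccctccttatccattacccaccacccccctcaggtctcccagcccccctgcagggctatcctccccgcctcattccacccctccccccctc
CTCF: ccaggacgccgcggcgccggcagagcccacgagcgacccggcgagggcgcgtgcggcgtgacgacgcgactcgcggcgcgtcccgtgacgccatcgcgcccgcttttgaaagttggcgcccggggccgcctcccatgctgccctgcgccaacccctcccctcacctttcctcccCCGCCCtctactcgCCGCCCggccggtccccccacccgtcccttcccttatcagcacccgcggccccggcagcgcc

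The CTCFL window held 2 CG dinucleotides and was 66.4% G or C, and the CTCF window held 39 CG dinucleotides and was 76.8% G or C. The median over 35114 promoter windows of that length was 11 CG dinucleotides and 58% G or C. The CTCFL window thus stood at percentile 22.9 of all windows for CG dinucleotides, although its G and C content was above the median. The contrast depends on the start chosen, as the windows of the other CTCFL starts, 512 and 955 bases downstream, held 7 and 15 CG dinucleotides. The window shown contained 1 GC box and the CTCF window 2, and 42.6% of all windows had at least one on either strand. Neither window contained the TATA box TATAAA (in 10.7% of all windows), the octamer ATGCAAAT (1.63%), the SOX core CATTGT (9.29%) or the SMAD element GTCTAGAC (0.182%) on either strand. These matches describe the letters only.

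Library totals ran from 9942016 to 21394547 counts. At that depth a floor of 3 counts, below which a gene cannot be told from absent, corresponded to 0.133 to 0.294 CPM per library, where CPM are counts scaled to a common library size. No feature carried a name of DIGIT, so the knockouts are taken from the labels. The label of stem cells at day 0 was matched by 12 pluripotency markers, whose summed level was 7456 to 8206 CPM in the 6 day 0 libraries with none at 0. At day 4, 12 markers of definitive endoderm summed to 5048 to 5620 CPM in WT and 5756 to 5824 CPM in KO1. In KO2 they summed to 1056 to 1306 CPM, against 9.98 to 20.7 CPM at day 0. In KO2 at day 4 all 12 were below WT and 9 of the 12 pluripotency genes were above it, where 14.5% of all tested features were called lower and 13.5% higher (edgeR's quasi-likelihood test, Benjamini-Hochberg adjusted p under 0.05). The pluripotency sum was then 7243 to 7318 CPM against 5815 to 5964 CPM in WT. In KO1 at day 4, 3 of the 12 endoderm markers were called lower than WT and 2 higher, with a median log2 difference of −0.29. The lower ones were CXCR4 (−1.44), GATA4 (−1.13) and SOX17 (−0.37), and the higher ones MIXL1 (1.29) and LHX1 (0.52). Over all tested features 9.42% were called lower and 10.5% higher in KO1. One library stood apart from its replicate. The pair of KO1 libraries at day 0 differed with a chi-square of 22.4 per feature, where the other 5 pairs gave 1.96 to 4.11, and the second of them lay alone on the fourth principal component at 33.3. Nothing in the labels says that replicates were separate cultures, so p values measure the spread between libraries, which may be technical.

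All 5 genes were high in every line at day 0 and low in every line at day 4. In both clones, whose libraries the rule that chose the genes did not use, IDO1, NPTX1 and SEZ6 fell between the days. The genes were chosen with earlier results of these data known, so the clones are not an independent check. Over all 5 genes the log2 changes ran from −6.68 to −3.18 in KO1 and from −6.05 to −4.35 in KO2. BTBD17 and CTCFL passed the filter on low counts through their day 0 libraries alone, so their changes are given without a test. For every gene the lowest day 0 library lay above the highest day 4 library of all 3 lines. The share of all features that lay apart in this way across the 3 lines was not computed. Within a single clone, both day 0 libraries lay above both day 4 libraries in 37.7% of all tested features in KO1 and 39.8% in KO2. Of all tested features, 29.3% were called lower at day 4 in KO1 and 25.7% in KO2 by edgeR. A fall of at least 3 on the log2 scale was seen in 1.55% of features in KO1 and 1.19% in KO2. IDO1, NPTX1 and SEZ6 reached it in both clones. The values of BTBD17 and CTCFL did too, but genes that pass the filter at day 0 alone are low at day 4 by that definition. Their falls are therefore not set against these shares or those for overlap. In WT, where the rule was applied, 25.4% of features were called lower. In bulk RNA, fewer expressing cells and less RNA per cell cannot be told apart.

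**Figure D1:**
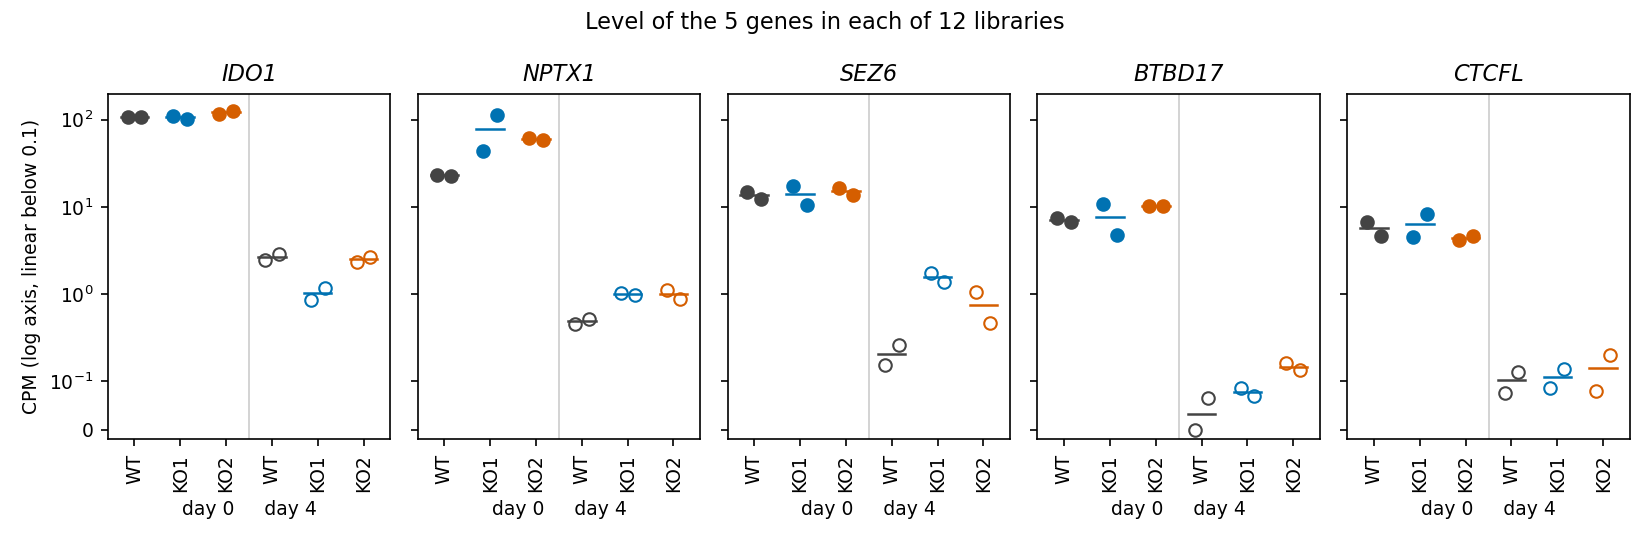
Level of IDO1, NPTX1, SEZ6, BTBD17 and CTCFL in CPM (log axis, linear below 0.1) in each of the 12 libraries, with filled points for day 0, open points for day 4 and short lines for group means. Every day 0 point lies above every day 4 point of its gene, the KO1 points of IDO1 at day 4 (0.863 and 1.17) lie below the others, and the KO1 points of SEZ6 (1.73 and 1.38) lie above.

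IDO1, the tryptophan-degrading enzyme, stood at 108.3 and 108.9 CPM in WT at day 0, 111.7 and 102.1 CPM in KO1, and 115.9 and 126.4 CPM in KO2. The day 4 values were 2.44 and 2.90 CPM for WT, 0.863 and 1.17 CPM for KO1, and 2.33 and 2.68 CPM for KO2. At day 0 the KO2 libraries lay slightly above the others and those of WT and KO1 overlapped, while at day 4 the KO1 libraries lay below all 4 others and those of WT and KO2 overlapped. The share of the day 0 level left at day 4, from summed counts with an exact 95% interval for counting error only, was 2.48% (1.95 to 3.11) in WT, 0.972% (0.639 to 1.42) in KO1 and 2.08% (1.61 to 2.64) in KO2. IDO1 fell in KO1 (log2 change −6.68, SE 0.15, edgeR adjusted p = 9.42e-14) and in KO2 (−5.58, SE 0.13, edgeR adjusted p = 4.88e-13), and the difference in WT was −5.33.

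NPTX1, the secreted pentraxin, stood at 23.4 and 22.7 CPM in WT at day 0, 43.6 and 114.1 CPM in KO1, and 62.3 and 58.0 CPM in KO2. Day 4 brought values of 0.458 and 0.516 CPM for WT, 1.04 and 0.963 CPM for KO1, and 1.12 and 0.870 CPM for KO2. On both days all 4 clone libraries lay above both WT libraries, and the KO1 and KO2 libraries overlapped. The second KO1 library at day 0 was 2.62 times the first, the widest gap between day 0 replicates of these genes. NPTX1 fell in KO1 (log2 change −6.30, SE 0.45, edgeR adjusted p = 1.56e-08) and in KO2 (−5.92, SE 0.46, edgeR adjusted p = 8.41e-08), and the WT difference was −5.53. The share left was 2.12% in WT, 1.21% in KO1 and 1.64% in KO2, with counting intervals that overlapped.

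SEZ6, the CUB and sushi domain protein, stood at 14.8 and 12.4 CPM in WT at day 0, 17.5 and 10.5 CPM in KO1, and 16.4 and 13.8 CPM in KO2. At day 4 the WT libraries held 0.153 and 0.258 CPM, those of KO1 1.73 and 1.38 CPM, and those of KO2 1.04 and 0.468 CPM. The lines overlapped at day 0, and at day 4 they lay apart in the order WT, KO2, KO1 from low to high. The WT libraries then held 2 and 4 counts, the first of them under the floor of 3, so the size of the gap to WT is uncertain. The share left was 1.56% (0.568 to 3.43) in WT, 11.2% (7.92 to 15.5) in KO1 and 4.82% (2.91 to 7.58) in KO2. Its change in KO1 (log2 −3.18, SE 0.29, edgeR adjusted p = 2.78e-07) was the smallest among these genes. In KO2 its log2 change was −4.35 (SE 0.34, edgeR adjusted p = 9.98e-08), and the WT difference was −5.96.

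BTBD17, the BTB domain protein, stood at 7.46 and 6.71 CPM in WT at day 0, 10.8 and 4.72 CPM in KO1, and 10.2 and 10.3 CPM in KO2. At day 4 the WT libraries had 0 and 1 counts, the KO1 libraries 1 each and the KO2 libraries 2 each. Every day 4 library was thus under the floor of 3 counts, and the lines cannot be ordered there. The day 0 level was 201 times the day 4 level in WT (95% counting interval 35.6 to 7989), 97.0 times in KO1 (26.6 to 804) and 70.2 times in KO2 (27.0 to 260.0). The fitted log2 changes were −6.48 in KO1 (SE 0.63) and −6.05 in KO2 (SE 0.55).

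CTCFL, the germline paralog of CTCF, stood at 6.78 and 4.66 CPM in WT at day 0, 4.50 and 8.32 CPM in KO1, and 4.12 and 4.60 CPM in KO2. At day 4 the WT libraries had 1 and 2 counts, as did those of KO1, and the KO2 libraries had 1 and 3. All day 4 libraries were at or under the floor, and the pair of KO1 libraries at day 0 spanned both WT libraries. The day 0 level was 53.0 times the day 4 level in WT (95% counting interval 17.8 to 260.2), 57.6 times in KO1 (19.5 to 281) and 29.8 times in KO2 (11.3 to 112). Its fitted log2 change was −5.71 in KO1 (SE 0.53) and −4.82 in KO2 (SE 0.56).

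**Figure D2:**
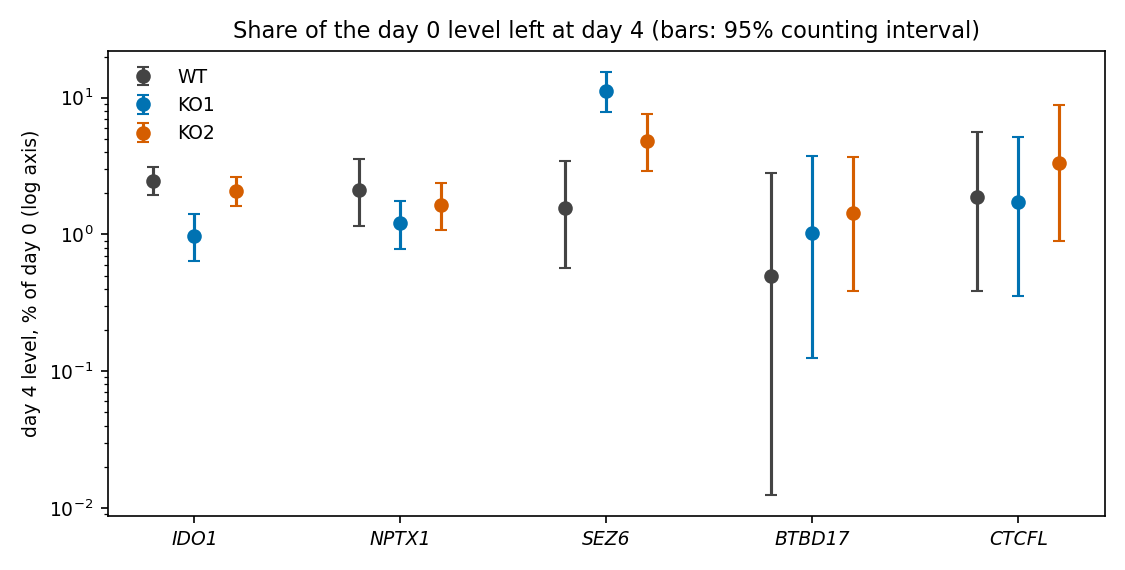
Day 4 level as a percentage of the day 0 level (log axis) for each gene in WT, KO1 and KO2, from counts summed over 2 libraries, with bars for the exact 95% counting interval. SEZ6 kept 11.2% in KO1 against 1.56% in WT, and IDO1 kept 0.972% in KO1 against 2.48% in WT. The bars of BTBD17 and CTCFL are the widest because only 1 to 4 counts remained.

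The filter on low counts asked for about 0.744 CPM in at least 2 libraries. All 6 day 0 libraries reached it for each gene. At day 4 it was reached in 6 libraries for IDO1, 4 for NPTX1, 3 for SEZ6 and in no library for BTBD17 and CTCFL. Among gene symbols with at least 5 CPM in WT at day 0, the 5 genes held ranks 1 (BTBD17), 2 (SEZ6), 4 (CTCFL), 5 (NPTX1) and 6 (IDO1) by size of the WT difference. The genes nearest to them on that scale were HES3, a repressor of the Hes family, at rank 3 with −5.88 and PAPLN, an extracellular matrix protein, at rank 7 with −5.28. TCL1B at −5.13, SLC18A2 at −4.86 and SIT1 at −4.84 completed the first 10.

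The order was different in the clones, which the rule did not use, though the filter favours a steep fall of BTBD17 and CTCFL there too. In KO1 IDO1 held rank 2 of the symbols with at least 5 CPM at day 0 in that clone, BTBD17 rank 3, NPTX1 rank 4 and CTCFL rank 8. SEZ6 held rank 91 there. In KO2 BTBD17 held rank 3, NPTX1 rank 4, IDO1 rank 5 and SEZ6 rank 12, and CTCFL, with a mean of 4.36 CPM at day 0, was under the minimum level for that ranking. The first rank went to DAZL, a germ cell RNA-binding protein, in KO1 and to LDHD, the mitochondrial D-lactate dehydrogenase, in KO2. The plot of all tested features shows these positions.

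**Figure D3:**
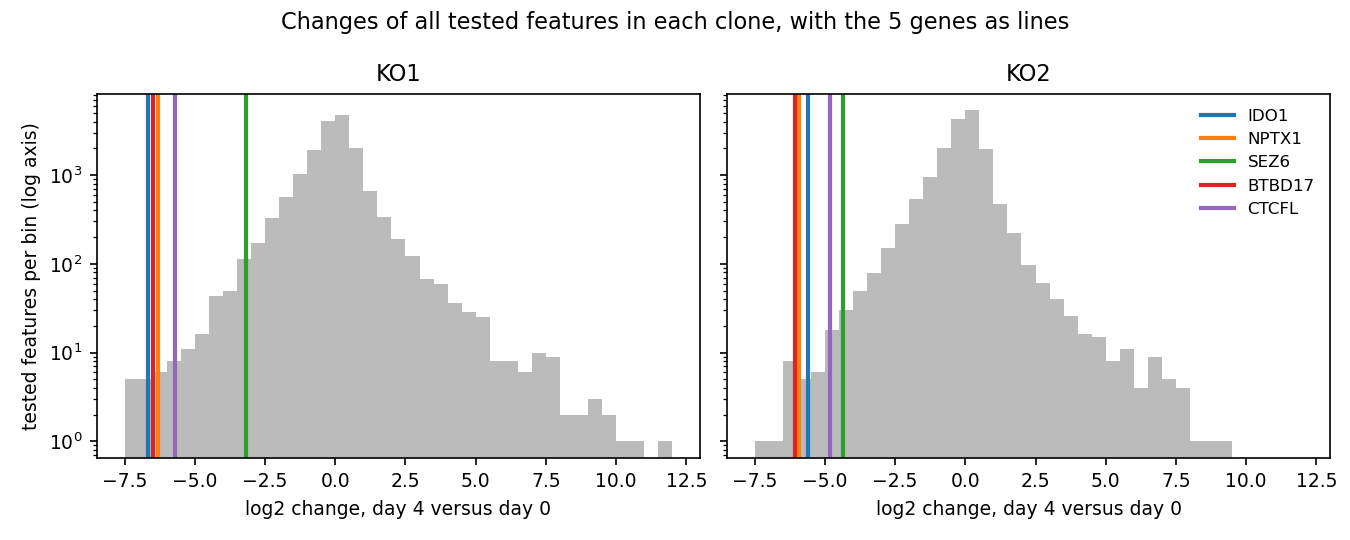
Number of tested features (log axis) by log2 change from day 0 to day 4 in KO1 and KO2, with the 5 genes as vertical lines. In KO1 the lines of IDO1, NPTX1, BTBD17 and CTCFL lie between −6.68 and −5.71 with SEZ6 apart at −3.18, and in KO2 all 5 lie between −6.05 and −4.35.

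The clones were then compared with each other in how far the genes had fallen. The difference between the day changes, KO2 minus KO1, was 1.10 on the log2 scale for IDO1 (SE 0.27, edgeR adjusted p = 0.0161), so IDO1 fell further in KO1. Of IDO1, NPTX1 and SEZ6 it was the only one called, where 10.4% of all tested features were. Leaving out a day 4 library leaves its arm with 1, assumed to vary like the other groups. The call was lost without the first KO1 library at day 4 (log2 difference 0.92, edgeR adjusted p = 0.133) or the second KO2 library at day 4 (0.98, edgeR adjusted p = 0.117). For SEZ6 the difference had the other sign, −1.17 (95% interval −2.32 to −0.03, edgeR adjusted p = 0.200), and it passed the threshold without the first KO1 library at day 0 (−1.58, edgeR adjusted p = 0.0100). The interval for NPTX1 was wide, from −1.59 to 2.36. For BTBD17 and CTCFL the differences of 0.43 and 0.89 were not tested, with SEs of 1.42 and 1.26.

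**Figure D4:**
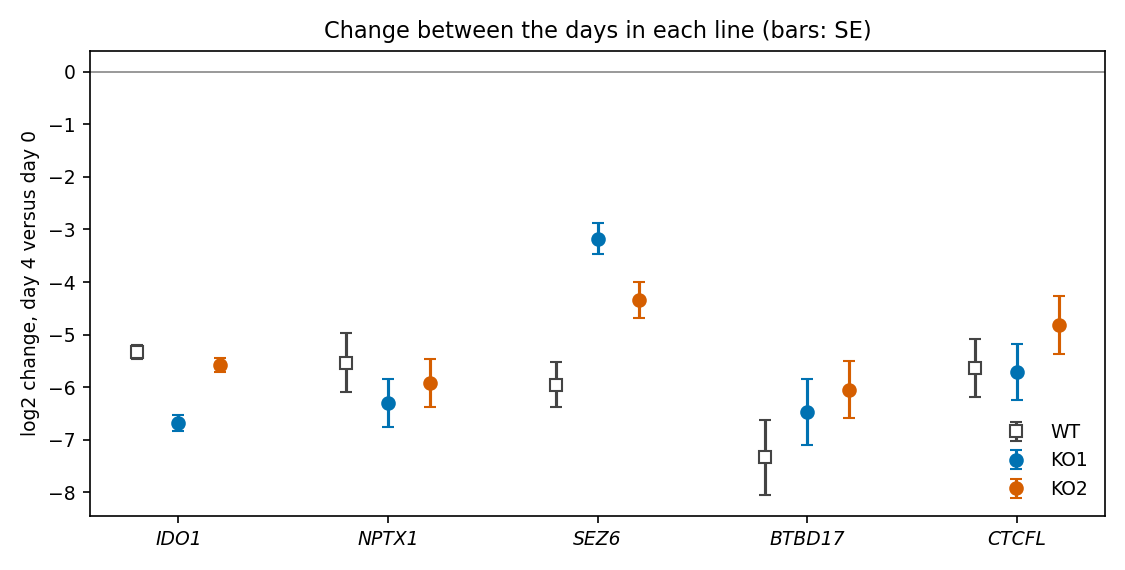
Log2 change from day 0 to day 4 of each gene in WT, KO1 and KO2, with bars for the SE of the fit. WT points are shown as a description without a test, IDO1 lies lowest in KO1 (−6.68 against −5.58 in KO2), and SEZ6 lies highest in KO1 (−3.18 against −4.35 in KO2).

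Against WT at day 0, NPTX1 stood apart in both clones. It was above WT by 1.78 in KO1 (log2, SE 0.29) and by 1.38 in KO2 (SE 0.30), with all 4 clone libraries above both WT libraries. Of all tested features 15.4% had both KO1 libraries above both WT libraries at day 0, and 18.2% had both KO2 libraries above them. Without either KO1 library the difference of KO1 from WT lay between 0.92 and 2.31.

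For the other 4 genes the log2 differences of KO1 from WT at day 0 were −0.02 for IDO1 (95% interval −0.21 to 0.16), 0.04 for SEZ6 (−0.42 to 0.50), 0.11 for BTBD17 (−0.49 to 0.71) and 0.20 for CTCFL (−0.36 to 0.76). In KO2 they were 0.16 for IDO1 (−0.03 to 0.35), 0.16 for SEZ6 (−0.32 to 0.63), 0.54 for BTBD17 (−0.08 to 1.16) and −0.37 for CTCFL (SE 0.30). The KO2 libraries lay above both WT libraries for IDO1 and BTBD17 and below both for CTCFL, and overlapped for SEZ6. The interval for BTBD17 in KO2 thus reaches a difference of 1.16 on the log2 scale, so equal levels are not shown. Between the clones no gene was called at day 0 by edgeR or at an unadjusted p under 0.05, where 0.0119% of features were called, and DESeq2 called none of the 5.

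The KO1 values at day 0 join 2 libraries that differed from each other in 4 of the 5 genes by more than in most features. From the first to the second library NPTX1 differed by 1.38 on the log2 scale, CTCFL by 0.86, SEZ6 by −0.73 and BTBD17 by −1.17, and 0.679%, 4.00%, 6.87% and 1.41% of tested features differed by more in either direction. IDO1 differed by −0.13, and 70.8% of features differed by more. The summed level of 10 mesoderm markers was 226.9 CPM in the first library and 364.3 CPM in the second, against 215.3 to 268.2 CPM in the day 0 libraries of WT and KO2. The sum of 10 neuroectoderm markers was 403.9 and 329.5 CPM, against 398.2 to 408.0 CPM in the others. No marker of either list was at 0 in these KO1 libraries. Such sums follow the most abundant markers and do not count cells. The part of mesoderm or neuroectoderm cells in the values of the 5 genes was not tested. Without the first KO1 library all 5 genes were called between the clones at day 0, with IDO1, SEZ6 and BTBD17 higher in KO2 and NPTX1 and CTCFL lower. KO1 is then the 1 library that stands apart, its spread is assumed to be that of the other groups, and 1437 and 1340 of all features were called higher and lower. Without the second KO1 library none of the 5 was called.

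**Figure D5:**
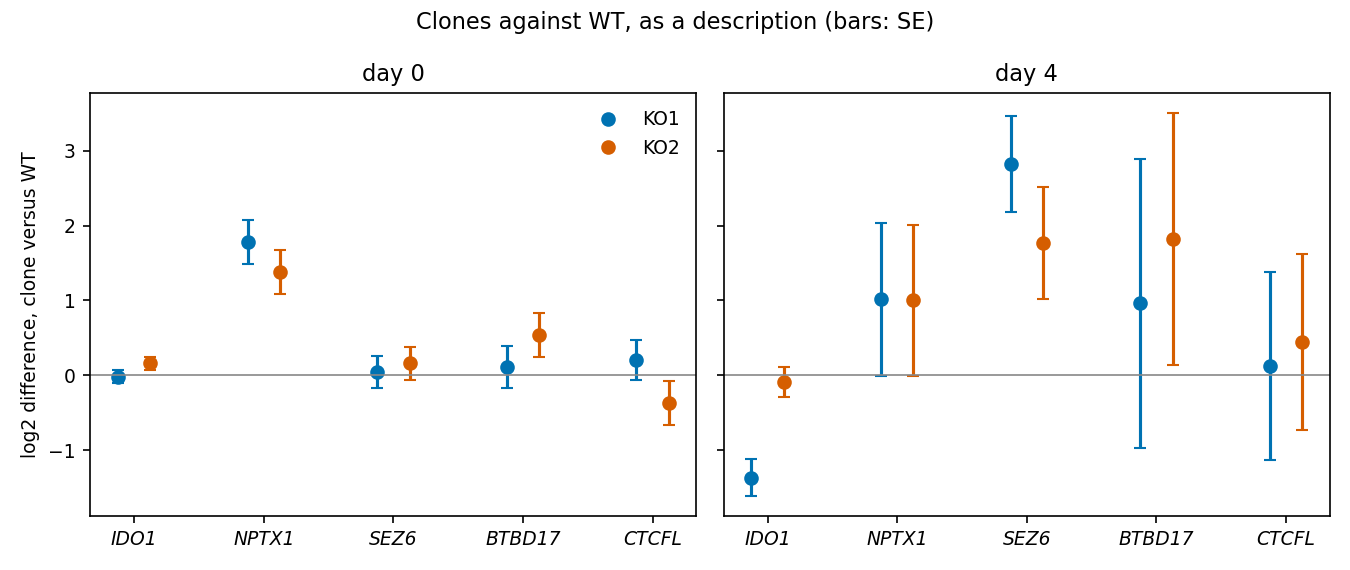
Log2 difference of KO1 and KO2 from WT at day 0 (left) and day 4 (right) for the 5 genes, with bars for the SE of the fit and no test. NPTX1 lies above 0 in both clones at day 0 (1.78 and 1.38), IDO1 in KO1 lies at −1.37 and SEZ6 in KO1 at 2.82 at day 4, and the bars of BTBD17 and CTCFL are wide at day 4.

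At day 4, when the genes were nearly gone, IDO1 and SEZ6 in KO1 lay on opposite sides of WT. The rule asked for low values in these WT libraries, so the differences from WT are given without a test. IDO1 lay below WT in KO1, by −1.37 on the log2 scale (SE 0.25), from 27 counts in KO1 against 77 in WT. SEZ6 lay above WT by 2.82 in KO1 (log2, SE 0.64), from 40 counts against 6, with the first WT library under the floor of 3 counts. Neither overlapped with WT, as was so for 31.6% of all features on the lower and 34.1% on the higher side. Over the left-out libraries IDO1 ran from −1.63 to −1.20 and SEZ6 from 2.52 to 3.26.

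In KO2 at day 4 SEZ6 lay 1.76 above WT (log2, SE 0.75), from 20 counts against 6. IDO1 differed from WT by −0.09 (95% interval −0.53 to 0.34), where all 12 endoderm markers were lower and 9 of 12 pluripotency genes were higher in the same libraries. The summed level of 10 neuroectoderm markers at day 4 was 800.9 to 831.0 CPM in WT. It was 1053 to 1101 CPM in KO1 and 1015 to 1040 CPM in KO2, and at most 1 marker was at 0 in a library. The markers did not share a direction. Of 9 tested, 1 was called higher and 0 lower than WT in KO1, with a median log2 difference of −0.43. In KO2 2 were called higher and 2 lower, with a median of −0.50. Over all features 10.5% were higher and 9.42% lower in KO1, and 13.5% and 14.5% in KO2. The part of neuroectoderm cells in the SEZ6 values was not tested. A direct comparison of the clones put IDO1 higher in KO2 than in KO1 by 1.28 (log2, SE 0.25, edgeR adjusted p = 0.00170), and 10.8% of features were called higher. For SEZ6 the difference between the clones was −1.06 and did not pass the threshold (95% interval −2.11 to −0.01, edgeR adjusted p = 0.134). It passed with no filter or with only the libraries compared (edgeR adjusted p = 0.0390 and 0.0493), and without either KO1 library at day 0, which enters only the common estimate of spread (0.0399 and 0.0394).

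NPTX1 at day 4 had 26 counts in KO1 and 27 in KO2 against 14 in WT, a ratio to WT of 2.03 and 2.01. The 95% counting intervals (1.02 to 4.22 and 1.02 to 4.16) cover counting error only. They are no test, because these WT libraries chose the gene. Both clones lay above WT in all libraries, as did 34.1% of features in KO1 and 35.7% in KO2. The fitted log2 differences were 1.01 in KO1 (SE 1.02, 95% interval −1.16 to 3.18) and 1.00 in KO2 (SE 1.01, −1.15 to 3.15). BTBD17 had 2 counts in KO1 and 4 in KO2 against 1 in WT, and CTCFL 3 and 4 against 3. At this depth a difference between the lines in BTBD17 or CTCFL at day 4 was not detectable.

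The genes around each of the 5 in function were followed through lists that had been drawn up with earlier results of these data known. The counts below are to be read against all tested features, of which 29.1% rose and 29.3% fell in KO1, and 25% rose and 25.7% fell in KO2. For IDO1 these were enzymes and transporters of tryptophan and kynurenine, listed together with the receptor AHR and its repressor AHRR, and interferon response genes. The other entry enzymes of the pathway, IDO2 and TDO2, had group means of at most 0.182 and 0.198 CPM and were not tested. Of the 14 tryptophan and kynurenine genes tested, 5 rose and 5 fell in KO1 and 5 rose and 4 fell in KO2, with median log2 changes of −0.18 and 0.27 against medians near 0 over all features (0.00 in both). The amino acid transporter SLC7A5 rose by 1.75 in KO1 and 1.46 in KO2, its partner SLC3A2 by 0.87 and 0.78, and the tryptophanyl-tRNA synthetase WARS by 1.82 and 0.86. The kynurenine aminotransferases CCBL1 (−1.71 in KO1 and −1.78 in KO2) and CCBL2 (−0.96 and −0.79) fell.

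Among 27 interferon response genes tested, 16 fell and 4 rose in KO1, and 15 fell and 4 rose in KO2, with median log2 changes of −0.41 and −0.34. The largest falls in both clones were in the immunoproteasome subunits. PSMB9 changed by −4.24 in KO1 and −2.71 in KO2, from group means of 2.32 and 1.72 CPM to 0.103 and 0.254 CPM. PSMB8 changed by −3.13 and −2.60. JAK2 and JAK1, kinases of the interferon receptors, rose by 1.95 and 0.87 in KO1 and by 1.38 and 0.56 in KO2. Of the most abundant members, HLA-B fell in both clones (−0.73 and −0.44), and STAT3 had −0.07 in KO1, not called, and fell by 0.34 in KO2. Relative to WT at day 4, 4 of these 27 genes were higher and 4 lower in KO1, and 2 higher and 3 lower in KO2. Over all features 10.5% were higher and 9.42% lower in KO1, and 13.5% and 14.5% in KO2.

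For NPTX1, the list of pentraxins, AMPA receptor subunits and their partners had 13 tested genes, of which 9 fell and 1 rose in KO1 and 8 fell and 2 rose in KO2, with median log2 changes of −0.96 and −0.83. Its closest relative NPTX2, also a secreted pentraxin, had day 0 group means of 32.5 CPM (WT), 35.3 CPM (KO1) and 39.6 CPM (KO2). The day 4 means were 3.72, 10.3 and 11.8 CPM in the same order. NPTX2 fell (−1.77 in KO1 and −1.74 in KO2), and at day 4 it was higher than in WT by 1.48 in KO1 (SE 0.16, edgeR adjusted p = 1.55e-05) and by 1.67 in KO2 (SE 0.16, edgeR adjusted p = 1.84e-06). NPTXR, the membrane-bound pentraxin, fell (−0.74 and −0.42) and was 0.71 and 0.92 above WT at day 4, both called. The AMPA receptor subunit GRIA4 changed by −4.45 in KO1 and −2.53 in KO2, and CACNG8, an auxiliary subunit, by −4.25 and −3.16. DLG4, the postsynaptic scaffold, fell less (−0.96 and −0.97). CNIH3, another auxiliary subunit, rose by 1.30 and 0.67, and PICK1, a PDZ protein that binds AMPA receptors, rose by 0.42 in KO2 with 0.15 in KO1 not called.

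SEZ6 has a pair of paralogs, and they moved apart. SEZ6L rose by 1.66 in KO1 and 1.23 in KO2 (edgeR adjusted p = 3.69e-06 and 0.000859), from group means of 2.60 and 1.92 CPM to 8.23 and 4.52 CPM. SEZ6L2 changed by −1.28 and −1.31 (edgeR adjusted p = 3.15e-09 and 7.59e-09), from 124 and 125 CPM to 51.1 and 50.2 CPM. The list for SEZ6 held CUB and sushi domain genes and also the proteases BACE1 and BACE2, which are counted here. Over its 7 tested genes other than SEZ6, 4 rose and 1 fell in KO1, and 1 rose and 3 fell in KO2. BACE1, the protease known to cleave SEZ6, rose by 0.87 in KO1 and fell by 0.49 in KO2, and CSMD2 had −0.13 in KO1, not called, and fell by 0.51 in KO2.

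BTB domain genes showed no common direction. Of 10 tested besides BTBD17, 4 rose and 4 fell in KO1, and 5 rose and 3 fell in KO2, with median log2 changes of 0.02 and 0.01. BTBD11 (−1.65 and −1.40) and BTBD2 (−1.10 and −1.29) fell, while BTBD6 rose by 1.11 and 0.83. BTBD3 (−0.05 and −0.20) was not called in either clone. BTBD7 was not called in KO1 (0.09). LGALS3BP, a secreted glycoprotein with a BTB domain, fell as well (−2.52 and −2.06).

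CTCF, the paralog of CTCFL, rose by 0.52 in KO1 and 0.55 in KO2 (edgeR adjusted p = 2.48e-05 and 2.77e-05), to group means of 172 and 188 CPM, while CTCFL stood at no more than 3 counts per library. Of 15 tested insulator and cohesin genes 11 rose and 1 fell in KO1, and 9 rose and 6 did not pass in KO2. In WT 5 rose and 2 fell. The median log2 changes were 0.34 in KO1 and 0.24 in KO2. STAG1, a cohesin subunit, rose by 0.99 and 0.86 and the core subunit SMC1A by 0.32 in each clone. RAD21 rose by 0.38 and SMC3 by 0.23 in KO1, and neither was called in KO2 (−0.01 and 0.08). Of 26 germline-restricted genes other than CTCFL, 9 had enough counts to be tested, and 4 fell and 5 did not pass in each clone. DAZL changed by −7.00 in KO1 and −4.24 in KO2, PIWIL2, a PIWI protein, by −3.12 and −2.35, and TEX14 by −1.85 and −2.08. PIWIL2 was already below WT at day 0 (log2 −2.01 in KO1 and −2.17 in KO2). It was below WT at day 4 too (−1.84 and −1.23), and all 4 of these differences were called by edgeR. TEX101 was not called (−0.42 and −0.11).

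Neighbouring genes on the chromosome were read off the annotation by name only, since its build is not that of the counts. PIPOX, which neighbours SEZ6 and encodes a peroxisomal oxidase, fell in both clones (−2.53 in KO1 and −2.20 in KO2, edgeR adjusted p = 8.41e-10 and 7.59e-09), from group means of 77.2 and 81.0 CPM to 13.3 and 17.6 CPM. In WT its means were 82.4 CPM at day 0 and 11.3 CPM at day 4. Among the other coding neighbours that could be tested in the clones, the next largest fall was that of ENDOV beside NPTX1 (−0.96 in KO2). IDO2 and ADAM2, which flank IDO1, were at or below 0.238 CPM in every group mean. No other measured gene overlapped any of the 5 in that annotation.

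Each gene's profile over the 12 libraries was also compared with that of every other gene symbol, as the Euclidean distance between log2 CPM values centred on each gene's mean. BTBD17 was the second nearest to IDO1 (distance 2.16) and the third nearest to NPTX1 (2.60), and no other pair among the 5 genes was within a nearest 3. HES3 was nearest to IDO1 (1.99) and the second nearest to BTBD17 (1.83), with log2 changes of −6.27 in KO1 and −4.50 in KO2. PAPLN was nearest to BTBD17 and the second nearest to NPTX1 (2.59), with changes of −5.56 and −4.23. SLC18A2, the vesicular monoamine transporter, was nearest to CTCFL (1.25) and the second nearest to SEZ6 (2.17), with −4.12 and −3.66. PHYHIP was nearest to SEZ6 (1.93), with changes of −3.63 in KO1 and −5.02 in KO2, in the same order as SEZ6 itself. Nearest to NPTX1 was LDHD (2.48), and the remaining places went to HTR1D, a serotonin receptor, for IDO1, ABCC8, the sulfonylurea receptor, for SEZ6, GDPD2 for BTBD17, and JPH4, a junctophilin, and HAPLN3, a hyaluronan link protein, for CTCFL. These distances rest mostly on the contrast between the days that all the libraries share and are a description.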

How the data were processed

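The deposited values are raw read counts per feature, for which the authors used Bowtie2 2.1.0, HTSeq 0.6.1 and hg19, per the submitters' processing notes. RNA-seq libraries were stranded and poly(A) selected, per the labels' protocols. Neither the annotation nor the strand setting used in counting is given in the sources used here, so antisense reads could enter a value. The 8 ChIP-seq samples were not analysed here. Rows without a gene (no feature, ambiguous, low quality, not aligned) stayed out.

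Counts of 12 libraries in 6 groups were fitted with edgeR 4.0.16 (quasi-likelihood, TMM, filterByExpr, 6 residual degrees of freedom) in R 4.3.3 with limma 3.58.1. P values were adjusted over 16792 features with a threshold of 0.05. The SE is the log2 change divided by the square root of F. CPM are counts scaled to a common library size with the TMM factors. A prior count of 2 entered only log2 CPM in profile distances and components. Scripts were tested on simulated counts. Figures used matplotlib 3.10.9.

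Differences of the 5 genes from WT had been planned as tests and are given without one, because the WT libraries chose the genes. The members and the gene lists were chosen with earlier results of these data known. Named in the text are the 5 genes, their nearest paralogs, the 3 most abundant genes of each functional list, the 2 largest called changes each way in both clones, the 3 nearest profiles, the 10 steepest differences in WT and the neighbouring genes. A result on a withheld item is not reported here. The alternatives were upper-quartile and median-of-ratios scaling, DESeq2 1.42.0, no filter, only the libraries compared, a replicate block and each library left out. RefSeq names for GRCh38.p14 gave neighbours, and a promoter sequence was printed where the table held one.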

Additional observations from a re-analysis of the deposited data

Results flagged for a closer look

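The change of IDO1 between the days differed between the clones. The day change in KO2 minus that in KO1 was 1.10 on the log2 scale (SE 0.27), with an edgeR interaction test giving an adjusted p of 0.0161. It rests on 27 counts in KO1 and 69 in KO2 at day 4, and over the alternatives it lay between 0.92 and 1.35 with adjusted p values from 0.00734 to 0.133.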

How the results depend on the processing

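The falls of IDO1, NPTX1 and SEZ6 in both clones were called under all 18 alternatives, as was the higher IDO1 level in KO2 than in KO1 at day 4. Between the clones at day 0 left-out libraries gave 0 to 3 of the 5 genes higher and 0 to 2 lower. At day 4 SEZ6 was called lower in KO2 than in KO1 with no filter and with only the libraries compared (1 gene), and left-out libraries gave 0 to 1. For the difference of day changes they gave 0 to 1 higher and 0 to 1 lower.

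Replicate numbers did not pair the libraries: the differences between replicates correlated at −0.04 to 0.15 over 15 pairs of groups. With a replicate block the IDO1 difference of day changes was 1.10 (edgeR adjusted p = 0.0183), and no call among the 5 genes changed.

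The sign of some differences turned, given here as ranges over left-out libraries. KO2 minus KO1 at day 0 ran from −0.92 to 0.46 for NPTX1, −0.21 to 0.52 for SEZ6 and −0.071 to 1.12 for BTBD17, and the ends at −0.92, 0.52 and 1.12, all without the first KO1 library, were called. At day 4 it ran from −0.47 to 0.76 for CTCFL and −0.19 to 0.17 for NPTX1, which was 0.0036 with upper-quartile factors, and none of these was called. The NPTX1 difference of day changes ran from −0.48 to 0.91. Between the days KO1 gave −0.14 to 0.0053 for STAT3, −0.023 to 0.33 for PICK1 and −0.74 to 0.032 for TEX101, and KO2 gave −0.25 to 0.030 for TEX101 and −0.022 to 0.0074 for RAD21, with 0.0091 without a filter. The cause was not tested.

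Over all tested features, counts of calls also moved. At day 0 KO1 gave 10 higher and 30 lower than WT (1 to 1891 and 8 to 1870 over the alternatives), KO2 9 and 15 (1 to 71 and 1 to 55), and KO2 against KO1 2 and 0 (0 to 1437 and 0 to 1340). For both comparisons with KO1 the highest value came without its first library. At day 4 KO1 gave 1755 and 1582 (741 to 2811 and 611 to 2552), KO2 2266 and 2431 (950 to 3406 and 1422 to 3395), and KO2 against KO1 1810 and 2404 (717 to 3244 and 1451 to 3469). The difference of day changes gave 659 and 1095 (267 to 1703 and 630 to 2034). Depth limits BTBD17 and CTCFL at day 4, with at most 3 counts a library.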
